A study of Rattus norvegicus with 4 samples.

Results

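The genes described here encode chemokines, interleukins, members of the tumour necrosis factor (TNF) superfamily and the receptors of these ligands. They were taken by gene symbol from the gene count table of a comparison of rat articular cartilage, which covers the bone ends in joints, with rat xiphoid cartilage, the lower tip of the sternum. The symbol patterns matched 112 of the 13554 genes in the table, and leaving out the osteoclast regulators Tnfsf11, Tnfrsf11a and Tnfrsf11b gave 109 members. Both tissues came from Sprague-Dawley rats aged 8 to 10 weeks with no treatment named, and each had 2 libraries. The labels name neither the joint, the sex nor the animals behind a library, so a p-value here reflects only the spread of these samples, and that spread may be technical. The tissue was ground up whole, and in such bulk samples fewer cells of a type and less RNA per cell cannot be told apart.

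Chemokines are small secreted proteins that guide cells along a gradient through receptors of the G protein-coupled family, while atypical receptors take chemokines up without that signal. Most interleukin receptors are built from a chain that binds the ligand and a partner chain that several receptors share, and they signal through JAK kinases and STAT factors or, for the IL-1 and IL-17 families, through NF-kappaB. TNF ligands act as trimers on TNF receptors, some of which carry a death domain. In cartilage, IL-1 and TNF are known for switching chondrocytes from making matrix to degrading it.

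Of the 109 members, 57 had enough counts to be tested and 52 did not. The level of each gene is given as CPM, counts per 1000000 library counts after TMM scaling, and a change as the log2 fold change (with ± its SE), positive when articular cartilage was higher. Among the tested members 18 had more transcript in articular cartilage, 19 had more in xiphoid cartilage and 20 did not pass an adjusted p of 0.05 (edgeR quasi-likelihood test, Benjamini-Hochberg over all 11202 genes tested, of which 49.5% were called, 25.0% toward articular and 24.5% toward xiphoid cartilage). The called members made up 64.9% of the tested members but 33.9% of all 109, against 40.9% of all genes in the table. A member that is high in a single tissue can reach the count minimum through that tissue alone, so the first share is a description and supports nothing. Of the 57 tested members, 30 passed and differed by more than 2-fold (16 toward articular and 14 toward xiphoid cartilage), against 29.2% of all tested genes. Over the whole table these were 30 of 109 members and 3273 of 13554 genes. The median log2 fold change of the tested members was 0.14, against -0.02 for all tested genes. The libraries of the tissues did not overlap in 50 of the 57 tested members, against 74.9% of all tested genes. The 2-fold and non-overlap counts among tested members come after the same count minimum, so they too are descriptions and support nothing.

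**Figure D1:**
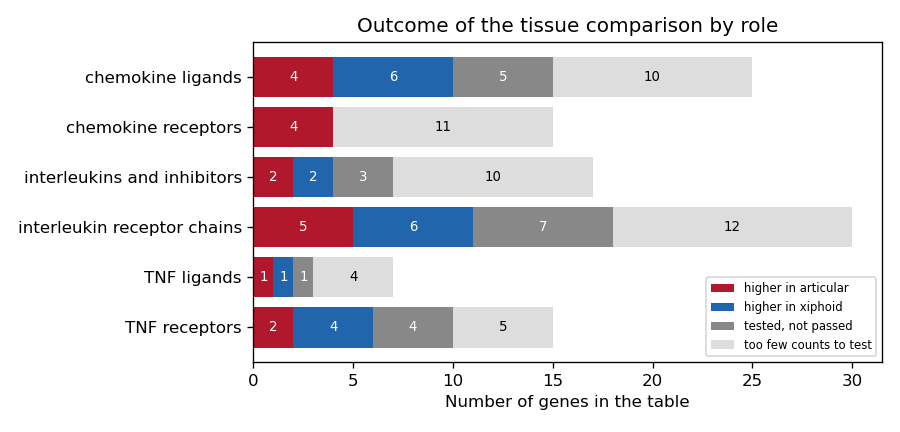
Number of genes (horizontal axis) in each of the 6 roles, split by the outcome of the comparison between articular and xiphoid cartilage. Chemokine receptors had 4 genes higher in articular and 0 higher in xiphoid cartilage with 11 too low to test, while the other roles held genes of both directions.

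The libraries held 7351006 to 8434820 counts. The share of counts held by the members was 0.162% and 0.158% in articular and 0.179% and 0.178% in xiphoid libraries. Where both libraries of a tissue had 0 counts, up to 3 counts remain possible, which is 0.186 CPM for articular and 0.19 CPM for xiphoid cartilage. Such floors cover the counting error of the 0 counts alone, and the intervals of count ratios cover counting error only. Chondrocyte markers were present in both tissues: all 8 chondrocyte genes listed were above 0, with a sum of 123000 and 105000 CPM in articular and 28700 and 27100 CPM in xiphoid cartilage. Transcript lengths were not used here, so levels are compared between tissues for a gene and not between genes.

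Markers of other cell types also differed between the tissues and are given before the results they touch. The B lineage list summed to 55.1 and 49.4 CPM in articular against 12.5 and 14.5 CPM in xiphoid cartilage, where 5 of its 9 genes were at 0 (Cd79b, Ms4a1, Pax5, Vpreb1 and Igll1) and 7 of 8 tested were higher in articular cartilage. Ebf1, which did not pass (5.981 and 12.07 against 12.23 and 14.38 CPM), held most of the xiphoid sum. The T and NK cell list summed to 49.2 and 47.3 against 7.29 and 10.5 CPM, with 5 of 10 genes at 0 in xiphoid cartilage (Cd3e, Cd2, Cd8a, Nkg7 and Gzmb) and 3 of 4 tested higher in articular cartilage. Zap70 (22.61 and 22.48 against 0.1176 and 0.274 CPM) and Cd4 (15.79 and 12.2 against 5.056 and 7.535 CPM) held most of that articular sum. Lck did not pass, and Cd3e, Cd3d, Cd3g, Cd2, Cd8a and Gzmb were too low to test. Both lymphocyte lists were thus higher in sum in the articular libraries. The neutrophil list (199 and 204 against 88.4 and 110 CPM) had 4 of 9 genes at 0 in xiphoid cartilage (Elane, Camp, Ngp and Mmp8). Lcn2, a siderophore-binding protein made by many cells besides neutrophils, was higher in xiphoid cartilage (77.61 and 97.54 against 15.19 and 16.83 CPM) and held most of the neutrophil sum there. The macrophage and monocyte list summed to 498 and 562 against 270 and 282 CPM, with all 9 genes above 0 in both tissues. Lyz2, which neutrophils also make, held most of that sum (345 and 411.1 against 149.8 and 171.5 CPM), while the median log2 change of the 9 genes was -0.21. Toward articular cartilage 3 were called (Lyz2, Csf1r and Cd68), toward xiphoid cartilage 1 (C1qc), and 5 did not pass.

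The mast cell list went the other way, at 22.7 and 32.9 CPM in articular and 70.2 and 71.4 CPM in xiphoid cartilage, with 4 of its 5 tested genes higher in xiphoid cartilage and Mcpt1 at 0 there. Endothelial markers summed to 184 and 187 against 236 and 243 CPM, with 4 of 9 higher in xiphoid and 1 higher in articular cartilage. Muscle and fat markers were far higher in xiphoid cartilage, with skeletal muscle markers at 310 and 245 against 8050 and 8420 CPM (9 of 10 called) and adipocyte markers at 101 and 88.2 against 3120 and 2520 CPM (8 of 8 called). Schwann cell markers (473 and 549 against 1610 and 1680 CPM, 3 of 5 tested called toward xiphoid cartilage) and fibroblast markers (7080 and 7670 against 9840 and 10300 CPM, 4 of 9 toward xiphoid and 1 toward articular cartilage) were also higher there in sum. Blood and bone markers were higher in articular cartilage, where erythroid markers were at 8030 and 8190 against 680 and 757 CPM (9 of 9 called). Osteoblast markers were at 4320 and 3160 against 39 and 42.6 CPM (8 of 8 called) and osteoclast markers at 1930 and 2010 against 152 and 143 CPM (6 of 6 called). The part of these cells in the results below was not tested.

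**Figure D2:**
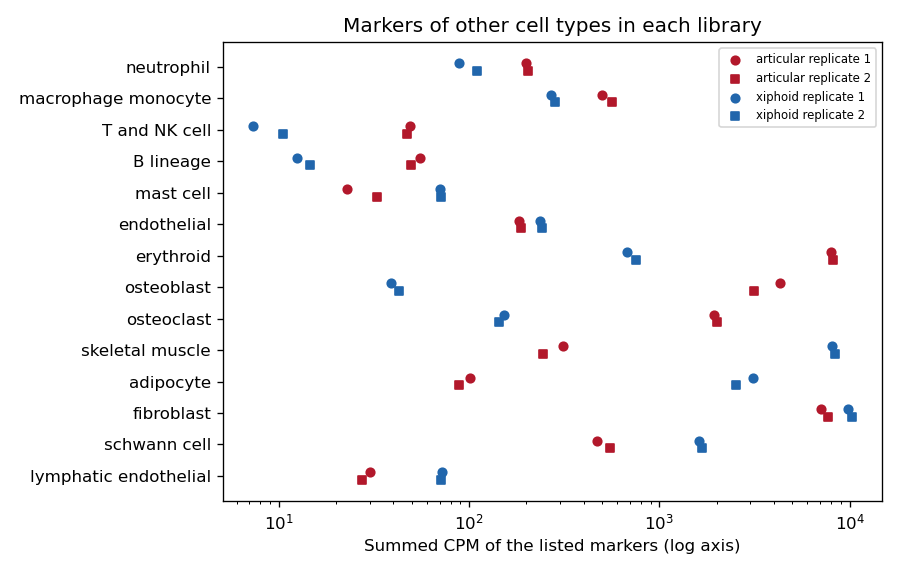
Summed CPM (log axis) of the markers of each cell type, with a point for each library. The neutrophil, macrophage, T and NK cell, B lineage, erythroid and bone lists lay higher in both articular libraries, and the mast cell, endothelial, muscle, fat, fibroblast and Schwann cell lists lay higher in both xiphoid libraries.

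Chemokine ligands were called toward either tissue, and sequences before the transcription start are shown for 4 of these genes and for the receptor Cxcr4. The 250 bases before the annotated start were read from RefSeq (assembly GRCr8), which held a start for 86 of the 109 members. They are written 5′ to 3′ on the strand of the gene, with matches to 4 short motifs in capitals. The motifs, searched on both strands, were the TATA box TATAAA, part of an NF-kappaB motif, GGGNNTTTC, a STAT motif TTCNNNGAA and part of an interferon-response motif, GAAANNGAA. The first 2 sequences belong to genes higher in xiphoid cartilage and the other 3 to genes higher in articular cartilage.
Ccl21, chr5:61777516-61777765, minus strand: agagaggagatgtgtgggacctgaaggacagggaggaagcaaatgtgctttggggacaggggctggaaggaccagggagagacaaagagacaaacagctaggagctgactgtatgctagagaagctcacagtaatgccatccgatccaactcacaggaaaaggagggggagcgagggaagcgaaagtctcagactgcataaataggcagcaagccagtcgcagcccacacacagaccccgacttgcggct
Cxcl13, chr14:13917921-13918170, minus strand: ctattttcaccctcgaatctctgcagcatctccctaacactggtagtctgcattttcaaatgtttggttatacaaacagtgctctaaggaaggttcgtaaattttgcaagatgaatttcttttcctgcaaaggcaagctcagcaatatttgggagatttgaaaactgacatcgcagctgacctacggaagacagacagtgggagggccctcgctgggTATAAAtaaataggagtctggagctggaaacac
Cxcl10, chr14:15988816-15989065, plus strand: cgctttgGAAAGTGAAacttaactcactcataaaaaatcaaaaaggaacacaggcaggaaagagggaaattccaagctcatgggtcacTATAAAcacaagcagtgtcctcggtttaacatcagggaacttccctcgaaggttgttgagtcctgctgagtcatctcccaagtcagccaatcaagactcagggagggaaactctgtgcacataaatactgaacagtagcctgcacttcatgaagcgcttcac
Ccl9, chr10:68868878-68869127, minus strand: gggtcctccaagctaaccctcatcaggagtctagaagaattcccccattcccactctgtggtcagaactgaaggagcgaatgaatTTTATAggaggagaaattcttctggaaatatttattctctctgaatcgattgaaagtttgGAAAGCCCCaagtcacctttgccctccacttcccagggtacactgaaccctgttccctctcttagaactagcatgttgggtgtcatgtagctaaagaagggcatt
Cxcr4, chr13:42634289-42634538, minus strand: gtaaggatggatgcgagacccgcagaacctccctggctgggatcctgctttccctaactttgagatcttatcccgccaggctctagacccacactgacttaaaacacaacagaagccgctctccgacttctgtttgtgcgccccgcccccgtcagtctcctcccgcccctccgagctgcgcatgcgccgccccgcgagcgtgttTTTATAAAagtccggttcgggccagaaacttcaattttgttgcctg

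The capitals mark TATAAA in Cxcl13, ending 28 bases before the start, and TATAAA with GAAANNGAA in Cxcl10. In Ccl9 they mark TATAAA and GGGNNTTTC, both on the opposite strand, and in Cxcr4 overlapping TATAAA matches of both strands. None of the 4 motifs was found in the window of Ccl21. TATAAA was found in 21 of 89 member starts (23.6%), against 12.9% of 33469 starts of all genes, and in 9 of 21 starts of chemokine ligands (42.9%). GGGNNTTTC was found in 13 of 89 member starts (14.6%, against 3.7% of all starts), of which 9 belonged to members too low to test. GAAANNGAA was found in 14.6% of member starts against 8.12% of all starts, and TTCNNNGAA in 7.87% against 7.67%. Among starts of called genes, TATAAA was found in 5 of 15 starts of genes higher in articular and in 4 of 16 starts of genes higher in xiphoid cartilage. A match is a run of letters and not a measured binding site.

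Among the 25 chemokine ligands, 4 were called toward articular and 6 toward xiphoid cartilage, 5 did not pass and 10 were too low to test. Ccl21 (Entrez gene 298006), the ligand of CCR7 that draws dendritic cells and T cells into lymphatic vessels and lymph nodes, was at 53.62 and 46.03 CPM in xiphoid cartilage and at 0.1196 and 0 CPM in articular cartilage, where it had 1 count in all. The ratio of its counts was 809 with an exact 95% interval of 145 to 32000 (log2 change -9.33 ± 0.44 SE, adjusted p = 7.2e-09). Cxcl13 (Entrez gene 498335), the ligand of CXCR5 that gathers B cells in follicles, was at 34.22 and 37.4 CPM in xiphoid against 0.3589 and 0.8991 CPM in articular cartilage. It was 56.3-fold higher in xiphoid cartilage (log2 change -5.82 ± 0.34 SE, adjusted p = 4.68e-08). Both homeostatic chemokines were thus at under 1 CPM in the articular libraries, where the sums of the T and NK cell and B lineage lists were higher. Their fitted changes depended on the few counts in articular cartilage. For Ccl21 the change was -11.62 and -8.53 without articular replicates 1 and 2. For Cxcl13, with 3 and 7 articular counts, it was -6.58 without articular replicate 2. Over the alternative analyses listed below, the change of Cxcl13 ran from -6.58 to -5.29.

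The receptors of this pair had few counts. Ccr7 had 6 counts in articular and 0 in xiphoid cartilage, and Cxcr5 had 5 and 6. Ccl19, the other CCR7 ligand, had 3 counts in articular and 7 in xiphoid cartilage, and its count ratio was 2.38 with an exact 95% interval of 0.544 to 14.3. Lymphatic endothelial markers, listed after Ccl21 was seen, summed over 5 genes to 72 and 71.6 CPM in xiphoid and 30 and 27.5 CPM in articular cartilage. Reln was at 27.63 and 27.95 CPM in xiphoid against 2.153 and 1.028 CPM in articular cartilage (adjusted p = 4.96e-07), and Pdpn, which other stromal cells also make, was at 23.99 and 28.91 against 13.64 and 12.72 CPM (adjusted p = 0.00157). Lyve1 (15.52 and 12.6 against 8.733 and 10.02 CPM) and Flt4 (4.351 and 2.055 against 5.503 and 3.725 CPM) did not pass, and the defining factor Prox1 was at 0.4704 and 0.137 CPM in xiphoid cartilage and at 0 in articular cartilage.

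Other ligands higher in xiphoid cartilage act on monocytes, eosinophils and T cells. Ccl2, which recruits monocytes through CCR2, was at 8.819 and 10.14 CPM in xiphoid against 0.957 and 2.055 CPM in articular cartilage, 6.29-fold higher (adjusted p = 0.000149). Its log2 fold change of -2.65 ran over the alternatives from -3.28, without articular replicate 2, to -2.19. Cxcl16, a membrane-bound ligand of CXCR6, was at 29.99 and 31.1 against 12.92 and 16.95 CPM, 2.05-fold higher (adjusted p = 0.00122). Cx3cl1, also made as a membrane-bound protein, was at 4.468 and 4.247 against 1.436 and 0.7706 CPM, 3.88-fold higher (adjusted p = 0.00457). In each of these 3 genes both xiphoid libraries lay above both articular libraries. Ccl24, an eosinophil attractant that acts through CCR3, was at 3.88 and 3.836 against 1.077 and 1.541 CPM (log2 change -1.55, adjusted p = 0.0137), and did not pass without articular replicate 1, where the change was -1.32 (adjusted p over its alternatives 0.00783 to 0.0597). Cxcl1, a neutrophil attractant too low to test, had 2 counts in articular and 12 in xiphoid cartilage, and the count ratio was 6.13 with an exact 95% interval of 1.36 to 56.4.

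Higher in articular cartilage were Cxcl12, Ccl5, Ccl9 and Cxcl10. Cxcl12 (Entrez gene 24772), the ligand of CXCR4 that retains blood stem cells and B cell precursors in marrow, was at 169.8 and 177.1 CPM in articular against 94.42 and 97.13 CPM in xiphoid cartilage, 1.81-fold higher (log2 change 0.86 ± 0.14 SE, adjusted p = 0.000364). Ccl5, which T and NK cells release, was at 2.393 and 3.339 against 0.3528 and 0.274 CPM, 8.67-fold higher (adjusted p = 0.00183). Ccl9, a rodent ligand of CCR1 that osteoclasts and myeloid cells make, was at 4.067 and 3.468 against 0.5879 and 1.096 CPM, 4.49-fold higher (adjusted p = 0.00414). Ccl5 and Ccl9 are neighbours in the genome. The sums of the T and NK cell, neutrophil and macrophage lists were higher in the same libraries, though the median log2 change of the macrophage list was -0.21. The part of position or of these cells in the change of Ccl5 and Ccl9 was not tested. Cxcl10, an interferon-induced ligand of CXCR3, differed between replicates of either tissue, at 3.11 and 9.119 CPM in articular and 0.1176 and 1.233 CPM in xiphoid cartilage (log2 change 3.22 ± 0.78 SE, adjusted p = 0.0062). Leaving out a library moved its change to 2.25 (articular replicate 2), 2.30 (xiphoid replicate 1) or 5.53 (xiphoid replicate 2). The neighbour Cxcl11, induced by the same signal, was at 1.196 and 2.055 against 0.9407 and 1.781 CPM and did not pass (adjusted p = 0.737).

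Cxcl14 (Entrez gene 306748), an orphan chemokine of epithelia and connective tissue, made up 23.2% and 17% of all member counts in articular and 17.5% and 17.4% in xiphoid libraries. It was at 378.5 and 269.5 CPM in articular and 311.4 and 311.5 CPM in xiphoid cartilage, so the articular libraries lay on either side of the xiphoid libraries, and it did not pass (log2 change 0.06 ± 0.17 SE, adjusted p = 0.806). Ccl7 (adjusted p = 0.184) and Ccl6 (adjusted p = 0.329), which attract monocytes, were at 2.393 and 2.312 and at 1.914 and 2.312 CPM in articular cartilage. In xiphoid cartilage they were at 4.116 and 3.425 and at 3.528 and 2.603 CPM. Ccl27 was at 1.316 and 1.028 against 1.529 and 0.548 CPM and did not pass (adjusted p = 0.879). Its gene span overlaps that of Il11ra1 in RefSeq. Whether reads of one gene were counted for the other was not tested, and no member had a fractional count.

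**Figure D3:**
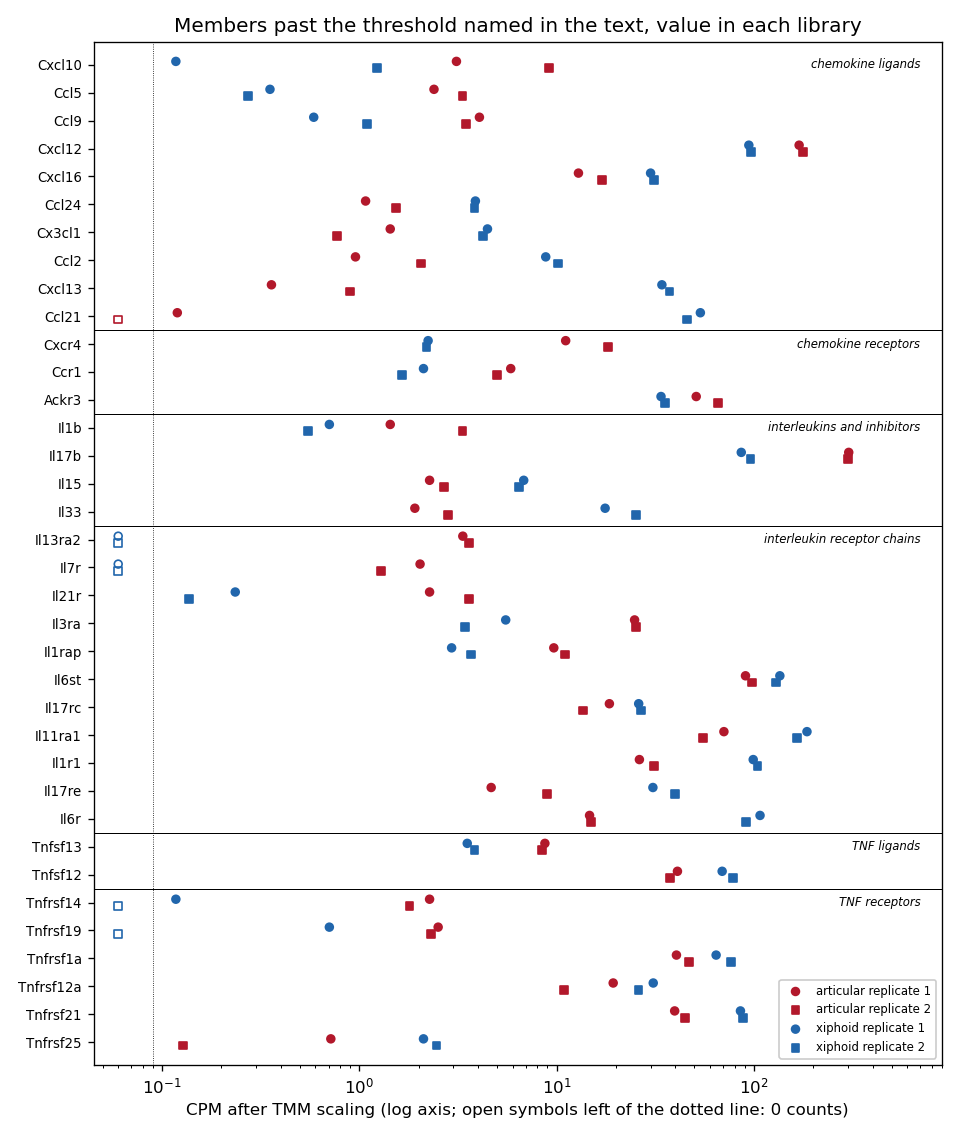
CPM after TMM scaling (log axis) of members past the threshold, with a symbol for each of the 4 libraries and open symbols for a count of 0. Ccl21 and Cxcl13 show the widest gaps toward xiphoid cartilage, and Il17b, at 303.0 and 301.6 CPM, lies farthest right among those higher in articular cartilage.

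All 4 chemokine receptors that could be tested were higher in articular cartilage, and the other 11 were too low to test. Called toward xiphoid cartilage were 0 by edgeR, also at an unadjusted p under 0.05, and 0 by DESeq2. Cxcr4 (Entrez gene 60628), the signalling receptor of CXCL12, was at 11.13 and 18.24 CPM in articular against 2.234 and 2.192 CPM in xiphoid cartilage, 6.58-fold higher (log2 change 2.72 ± 0.35 SE, adjusted p = 4.35e-05). Ackr3, the atypical receptor that takes up CXCL12, was at 51.08 and 66.15 against 33.87 and 35.62 CPM, 1.69-fold higher (adjusted p = 0.0036, and not called against a fold of 1.5). The ligand, the signalling receptor and the scavenger of the CXCL12 axis were thus all higher in articular cartilage. The sums of the B lineage, T and NK cell, neutrophil, macrophage, erythroid, osteoblast and osteoclast lists were higher in the same libraries. The part of any of these cells in the change of the CXCL12 axis was not tested.

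Ccr1, a receptor of the inflammatory chemokines CCL5 and CCL9 on myeloid cells and osteoclasts, was at 5.862 and 5.009 CPM in articular against 2.117 and 1.644 CPM in xiphoid cartilage, 2.86-fold higher (adjusted p = 0.0073). Among the untested receptors, Ccr2 had 22 counts in articular and 4 in xiphoid cartilage, Cx3cr1 14 and 6, and Cxcr2 10 and 10. Ackr2, a scavenger of inflammatory CC chemokines, had 3 and 18, a ratio of 6.13 toward xiphoid cartilage with an exact 95% interval of 1.79 to 32.5. Ccl2 and Cx3cl1 were thus higher in xiphoid cartilage, while the counts of their receptors Ccr2 and Cx3cr1 were too low to test.

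Among the 17 interleukins and secreted inhibitors, 7 were tested, with 2 called toward each tissue and 3 that did not pass. Il17b (Entrez gene 116472), an IL-17 family cytokine known to be made by chondrocytes, was at 303.0 and 301.6 CPM in articular against 86.43 and 96.17 CPM in xiphoid cartilage. It was 3.31-fold higher in articular cartilage (log2 change 1.73 ± 0.15 SE, adjusted p = 1.36e-06). It alone made up 18.6% and 19.1% of all member counts in articular and 4.87% and 5.37% in xiphoid libraries. Il33 (Entrez gene 361749), an alarmin kept in the nuclei of stromal and endothelial cells, was at 17.64 and 25.34 CPM in xiphoid against 1.914 and 2.826 CPM in articular cartilage, 9.03-fold higher there (log2 change -3.18 ± 0.31 SE, adjusted p = 5.37e-06). Its receptor chain Il1rl1, found on mast cells and some lymphocytes, had 16 counts in each tissue and was not tested.

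Il15, which sustains NK cells and memory T cells, was at 6.82 and 6.439 CPM in xiphoid against 2.273 and 2.697 CPM in articular cartilage, 2.66-fold higher (adjusted p = 0.0053). Il1b, the secreted IL-1 of activated myeloid cells, was low in all libraries, at 1.436 and 3.339 CPM in articular and 0.7055 and 0.548 CPM in xiphoid cartilage (log2 change 1.88, adjusted p = 0.0304). The call of Il1b was lost without articular replicate 2 (change 1.17), without xiphoid replicate 1 (2.09) and without xiphoid replicate 2 (1.74), with adjusted p over its alternatives from 0.00431 to 0.299. Il1rn, the IL-1 receptor antagonist, was at 3.589 and 2.569 against 1.293 and 2.466 CPM and did not pass (adjusted p = 0.231).

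Il34, a ligand of the macrophage growth factor receptor CSF1R, was at 34.93 and 43.03 CPM in articular and 26.46 and 34.66 CPM in xiphoid cartilage (log2 change 0.35, adjusted p = 0.152), and it passed without articular replicate 1 with a change of 0.50 (adjusted p over its alternatives 0.0273 to 0.977). Il16, a ligand of CD4, was at 25.84 and 18.24 against 34.1 and 28.36 CPM (log2 change -0.50, adjusted p = 0.0676), and it passed without articular replicate 1 with a change of -0.78 (adjusted p over its alternatives 0.00214 to 0.699). Classical inflammatory interleukins were scarcely detected. Il6 had 3 counts in articular and 1 in xiphoid cartilage, Il1a 2 and 0, Il11 17 and 11, and Il18 16 and 11. Il7, which marrow stroma supplies to B cell precursors, had 12 counts in articular and 0 in xiphoid cartilage, at least 3.92-fold higher by counts.

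Of 30 interleukin receptor chains, 18 were tested, with 5 called toward articular cartilage, 6 toward xiphoid cartilage and 7 that did not pass. The IL-6 and IL-11 binding chains and the chain they share were higher in xiphoid cartilage. Il6r (Entrez gene 24499), which binds IL-6, was at 107.6 and 91.38 CPM in xiphoid against 14.71 and 15.03 CPM in articular cartilage, 6.69-fold higher (log2 change -2.74 ± 0.17 SE, adjusted p = 1.04e-07). Il11ra1 (Entrez gene 245983), which binds IL-11, was at 186.1 and 166.3 against 70.58 and 55.36 CPM, 2.80-fold higher (log2 change -1.48 ± 0.17 SE, adjusted p = 1.49e-05). The shared signalling chain Il6st, known as gp130, was at 135.6 and 130.0 against 90.8 and 98.39 CPM, 1.40-fold higher (log2 change -0.49, adjusted p = 0.0146). Unlike the binding chains, Il6st did not pass without xiphoid replicate 1 (change -0.44) or without xiphoid replicate 2 (change -0.50), and its adjusted p over the alternatives ran from 3.25e-05 to 0.802. Whether Il6st changed by less than Il6r was not tested.

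The IL-1 receptor chains parted. Il1r1 (Entrez gene 25663), which binds IL-1, was at 99.36 and 104.5 CPM in xiphoid against 26.32 and 31.08 CPM in articular cartilage, 3.55-fold higher (log2 change -1.83 ± 0.16 SE, adjusted p = 2.15e-06). Its partner chain Il1rap, which the IL-33 receptor shares, was at 9.69 and 11.05 CPM in articular against 2.94 and 3.699 CPM in xiphoid cartilage, 3.13-fold higher there (log2 change 1.64 ± 0.31 SE, adjusted p = 0.000793). The binding chain and its partner thus differed in opposite directions. The decoy receptor Il1r2, which binds IL-1 without a signal, had 18 counts in articular and 6 in xiphoid cartilage and was not tested.

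Of the 4 tested receptor chains of the IL-17 family, Il17re and Il17rc were higher in xiphoid cartilage and the others did not pass, whereas the ligand Il17b was higher in articular cartilage. Il17rd was not tested, with 7 counts in articular and 2 in xiphoid cartilage, a count ratio of 3.43 (exact 95% interval 0.652 to 33.8). Il17re, a chain known for binding IL-17C, was at 30.81 and 39.87 CPM in xiphoid against 4.665 and 8.991 CPM in articular cartilage, 5.19-fold higher (log2 change -2.37 ± 0.28 SE, adjusted p = 2.45e-05). Its genomic neighbour Il17rc, which pairs with Il17ra for IL-17A and IL-17F, was at 26.1 and 26.85 against 18.54 and 13.61 CPM (log2 change -0.72, adjusted p = 0.0135). The call of Il17rc was lost without articular replicate 2 (change -0.51) and without xiphoid replicate 2 (change -0.67), with adjusted p over its alternatives from 0.000242 to 0.272. Il17rb, the binding chain of IL-17B and IL-25, was at 2.632 and 3.853 CPM in articular and 4.233 and 6.576 CPM in xiphoid cartilage and did not pass (log2 change -0.73 ± 0.39 SE, adjusted p = 0.139). The shared chain Il17ra was at 31.94 and 25.69 against 24.93 and 16.58 CPM (log2 change 0.47, adjusted p = 0.105). Il17ra passed without articular replicate 2 (change 0.61) and without xiphoid replicate 1 (change 0.82), with adjusted p over its alternatives from 0.0105 to 0.754.

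Receptor chains higher in articular cartilage included several known from blood cells. Il3ra, which binds IL-3 on marrow progenitors, basophils and endothelium, was at 24.88 and 25.3 CPM in articular against 5.527 and 3.425 CPM in xiphoid cartilage, 5.53-fold higher (log2 change 2.47 ± 0.26 SE, adjusted p = 9.51e-06). Its signalling partner Csf2rb, outside the symbol patterns, was at 6.46 and 4.752 against 16.11 and 16.58 CPM, a 2.90-fold difference toward xiphoid cartilage (adjusted p = 0.000397). Il7r, the IL-7 binding chain of lymphocyte precursors, was at 2.034 and 1.284 CPM in articular cartilage and had no count in xiphoid cartilage (adjusted p = 0.00229). Against a floor of 3 counts Il7r was 8.81-fold higher in articular cartilage. Il21r, found on lymphocytes, was at 2.273 and 3.596 against 0.2352 and 0.137 CPM, a count ratio of 15.3 with an exact 95% interval of 4.94 to 77.0 (adjusted p = 0.000967). The chain these receptors share with others, Il2rg, was at 3.708 and 10.79 against 3.41 and 3.151 CPM and did not pass (adjusted p = 0.0612). Il2rb, an IL-2 and IL-15 chain of T and NK cells too low to test, had 21 counts in articular and 1 in xiphoid cartilage, and the count ratio was 20.6 with an exact 95% interval of 3.31 to 850.

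Of the IL-4 and IL-13 receptor chains, 1 was called. Il13ra2 (Entrez gene 171060), a decoy that binds IL-13, was at 3.35 and 3.596 CPM in articular cartilage with no count in xiphoid cartilage (adjusted p = 0.00016). Against a floor of 3 counts Il13ra2 was 18.3-fold higher in articular cartilage. The signalling chains Il13ra1 (40.79 and 47.52 against 35.04 and 42.47 CPM, adjusted p = 0.393) and Il4r (25.24 and 21.45 against 21.64 and 20.69 CPM, adjusted p = 0.573) did not pass, and in both genes the libraries of the tissues overlapped. The IL-10 receptor chains Il10ra (1.436 and 1.413 against 0.7055 and 0.411 CPM, adjusted p = 0.127) and Il10rb (17.94 and 20.29 against 14.23 and 16.71 CPM, adjusted p = 0.247) did not pass either.

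**Figure D4:**
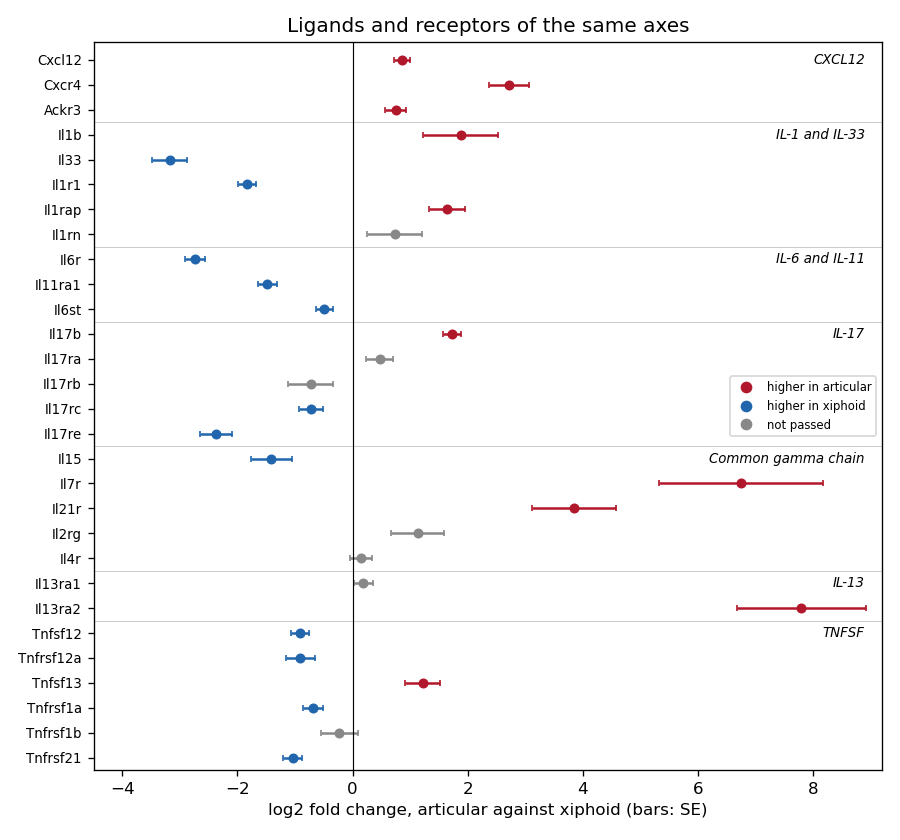
Log2 fold change (articular against xiphoid cartilage, bars give the SE) of ligands and receptors grouped by axis. The CXCL12 genes lie on the articular side and Il6r, Il11ra1 and Il6st on the xiphoid side, the IL-1 chains lie on both, and the values of Il7r and Il13ra2, with no xiphoid count, depend on the prior count and are no bound.

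Among TNF ligands, 7 in the table and 3 tested, Tnfsf12 and its neighbour Tnfsf13 differed in opposite directions. Tnfsf12, or TWEAK, was at 69.14 and 78.36 CPM in xiphoid against 41.03 and 37.63 CPM in articular cartilage, 1.87-fold higher (log2 change -0.91 ± 0.16 SE, adjusted p = 0.000541). Its receptor Tnfrsf12a, or Fn14, was at 30.93 and 26.03 against 19.38 and 10.92 CPM, 1.88-fold higher (adjusted p = 0.0107, and not called against a fold of 1.5), so ligand and receptor were higher in the same tissue. Tnfsf13, or APRIL, which sustains plasma cells, was at 8.733 and 8.477 CPM in articular against 3.528 and 3.836 CPM in xiphoid cartilage, 2.34-fold higher there (adjusted p = 0.00523). Its receptors Tnfrsf13b and Tnfrsf17 on B lineage cells had 8 and 4 counts in articular and 0 in xiphoid cartilage. Tnfsf9, at 1.675 and 0.3853 against 1.529 and 0.959 CPM, did not pass (adjusted p = 0.787). Tnfsf10, or TRAIL, had 5 counts in articular and 27 in xiphoid cartilage and was not tested.

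Of 15 TNF receptors, 10 were tested, with 4 called toward xiphoid cartilage, 2 toward articular cartilage and 4 that did not pass. Tnfrsf21, the death receptor DR6, was at 85.61 and 88.5 CPM in xiphoid against 39.72 and 44.7 CPM in articular cartilage, 2.06-fold higher (log2 change -1.04 ± 0.16 SE, adjusted p = 0.000149). Tnfrsf1a, the broadly expressed TNF receptor with a death domain, was at 64.44 and 76.85 against 40.55 and 46.75 CPM, 1.62-fold higher (log2 change -0.69, adjusted p = 0.00429). The call of Tnfrsf1a was lost without xiphoid replicate 2 (change -0.54, adjusted p over its alternatives 1.97e-07 to 0.26). Tnfrsf1b, the TNF receptor of leukocytes and endothelium, was at 4.665 and 4.881 CPM in articular and 6.115 and 5.069 CPM in xiphoid cartilage and did not pass (adjusted p = 0.578).

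Tnfrsf14, or HVEM, a receptor of lymphocytes, was at 2.273 and 1.798 CPM in articular cartilage and had 1 count in xiphoid cartilage, and the count ratio was 32.3 with an exact 95% interval of 5.41 to 1310 (adjusted p = 0.00172). Its fitted log2 change of 4.71 was 7.01 and 3.97 without xiphoid replicates 1 and 2. Tnfrsf19, also called TROY, was at 2.512 and 2.312 against 0.7055 and 0 CPM (log2 change 2.63, adjusted p = 0.0153), with a change of 7.25 without xiphoid replicate 1 and 1.77 without xiphoid replicate 2, where it did not pass (adjusted p over its alternatives 0.000429 to 0.0682). Tnfrsf25, the death receptor DR3 of T cells, differed in the other direction from the sum of the T and NK cell list, at 2.117 and 2.466 CPM in xiphoid and 0.7178 and 0.1284 CPM in articular cartilage (log2 change -2.36, adjusted p = 0.0146). Its change was -3.99 without articular replicate 1 and -1.65 without articular replicate 2, where it did not pass (adjusted p over its alternatives 0.0026 to 0.0854). Tnfrsf26 (32.18 and 35.32 against 26.81 and 26.58 CPM, adjusted p = 0.13) and the TRAIL receptor Tnfrsf10b (2.991 and 3.596 against 4.939 and 5.48 CPM, adjusted p = 0.142) did not pass.

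Cytokine genes with other names were also split between the tissues. Of 51 listed, 43 were in the table and 30 tested, with 8 called toward articular cartilage (5 without xiphoid replicate 2), 10 toward xiphoid cartilage and 12 that did not pass. Cntfr, the binding chain for ciliary neurotrophic factor that also signals through gp130, was at 81.14 and 91.51 CPM in xiphoid against 5.503 and 3.725 CPM in articular cartilage, 18.6-fold higher (adjusted p = 1.81e-08). Lifr, the LIF-binding chain that pairs with gp130, went the other way, at 35.17 and 34.42 CPM in articular against 8.231 and 3.425 CPM in xiphoid cartilage, 5.86-fold higher there (adjusted p = 2.71e-05). Mif, a cytokine that binds CD74 and CXCR4, was 1.85-fold higher in articular cartilage (adjusted p = 0.000752). Csf1r, which is also a macrophage marker of the list above, was 2.49-fold higher in articular cartilage (adjusted p = 7.51e-05). Kit, also on the mast cell list, was 3.47-fold (adjusted p = 2.67e-05) and the IL-17 receptor adaptor Traf3ip2 3.71-fold higher in xiphoid cartilage (adjusted p = 0.000586).

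The signalling genes of the NF-kappaB and JAK-STAT pathways were nearly all detected. Of 60 listed, 56 were in the table and 55 tested, with 15 called toward articular cartilage (7 without xiphoid replicate 2), 9 toward xiphoid cartilage and 31 that did not pass, or 43.6% called. The share called among all tested genes was 49.5%. The median log2 fold change of the signalling genes was -0.02, equal to that of all tested genes, and 8 of the 24 called signalling genes changed by more than 2-fold. Jak2 (76.32 and 84.13 against 23.05 and 26.85 CPM, adjusted p = 5.49e-06) and Jak3 (18.18 and 15.93 against 6.585 and 3.014 CPM, adjusted p = 0.000585), kinases bound to cytokine receptor chains, were higher in articular cartilage. So were Socs3, an inhibitor of gp130 signalling (21.29 and 16.31 against 5.527 and 5.069 CPM, adjusted p = 0.000101), and the NF-kappaB kinase Chuk, which was 2.12-fold higher (adjusted p = 0.00234). Cish, a STAT5-induced inhibitor, was at 21.75 and 29.45 CPM in xiphoid against 2.751 and 1.798 CPM in articular cartilage, 11.1-fold higher (adjusted p = 1.67e-06). Traf4 was 3.62-fold (adjusted p = 2.49e-06), the NF-kappaB inhibitor Nfkbia 1.64-fold (adjusted p = 0.00291) and the STAT3 inhibitor Pias3 1.64-fold higher in xiphoid cartilage (adjusted p = 0.0032).

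Neighbouring members were called in the same or in opposite directions. In the RefSeq gene order 17 pairs of members lay next to each other, of which 6 had both genes tested and 3 had both called. Ccl5 with Ccl9 and Il17re with Il17rc were called in the same direction, and Tnfsf13 with Tnfsf12 in opposite directions. Of the pairs with a single called gene, Ccl2 passed beside Ccl7 and Cxcl10 beside Cxcl11, which did not.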

How the data were processed

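The authors deposited 1 table of expected counts, not normalized, with a column for each library. RSEM 1.2.12, Bowtie2 2.2.6, HISAT2 2.0.4, StringTie 1.2.1 and build rn6 are named in the submitters' processing notes. Use of strand in counting: not given in the sources used here. Counts were rounded, filtered with filterByExpr by tissue (11202 of 13554 genes tested) and scaled by TMM. They were then tested with the edgeR 4.0.16 quasi-likelihood test (robust, 2-sided, 2 residual degrees of freedom, R 4.3.3) with tissue as the only term. Adjustment was Benjamini-Hochberg over all genes tested. The SE is the change divided by the square root of F. Folds against 0 counts use a floor of 3 counts over both libraries and leave out the counting error of the higher tissue, so they are no lower bounds. Ratios with 1 to 3 counts have exact conditional binomial intervals. On data simulated for this comparison (11037 genes tested), 65% of 100 genes changed 2-fold and 98% of 100 genes changed 4-fold were recovered. Of all calls 10.4% were false, which is above the threshold of 0.05. The simulation changed 200 genes, whereas 49.5% of the genes tested in the data were called, so these shares do not carry over to the data.

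The members, roles, lists and tests were chosen with earlier results of these data known. Values in every library were to be given for the 8 called members with the largest fold in each direction that reached 5 CPM in the higher tissue, the 8 with the highest mean CPM and a fixed set of ligand-receptor axes. Other called members could be named, and for each related list the 4 genes in each direction with the lowest adjusted p. Members outside this rule (not called or untested) and the lymphatic endothelial list, of which 5 of 6 genes were in the table, were named after their values were seen. Some genes that the counts include are not reported here by name. RefSeq order and sequences are of assembly GRCr8, to which all 109 members were matched. Promoter windows start 250 bases before the annotated start. Alternatives were each library left out, a replicate block, DESeq2 1.42.0, glmTreat with a fold of 1.5, scaling by RLE or by library size only, and either no filter or a minimum mean of 5 CPM.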

Additional observations from a re-analysis of the deposited data

How the results depend on the processing

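No direction changed in 45 tested members followed over 11 alternatives. Of 476 values, 446 kept their side of the threshold, 23 lost the call and 7 gained it, in 13 genes, and 27 of the 37 called members passed wherever they were tested. Counts of calls moved by over 1.5 times as follows. With glmTreat against a fold of 1.5, 1686 of all genes were called toward articular and 1538 toward xiphoid cartilage, with 2 chemokine receptors and 1 interleukin toward articular, 2 TNF receptors toward xiphoid, 4 and 3 signalling genes, and 5 and 6 other cytokine genes. With a mean CPM of at least 5, which tests fewer genes, 7 members were higher in articular cartilage, made up of 1 chemokine ligand, 2 chemokine receptors, 2 interleukin receptor chains, 1 interleukin and 0 TNF receptors among the roles whose count moved, beside 1 interleukin higher in xiphoid cartilage. The members no longer called included Ackr3, Il1b, Il17rc, Il6st, Tnfrsf1a and Tnfrsf12a for glmTreat and Ccl24 and Il1b for DESeq2, which called 1 interleukin higher in articular cartilage. Without the low-count filter 2 TNF ligands were higher in xiphoid cartilage, and 3 otherwise untested members passed (Il2rb, Il7 and Tnfsf10). With a library left out, the counts toward articular cartilage ran from 1 to 3 for interleukins, 1 to 2 for TNF receptors, 7 to 14 for signalling genes and 5 to 8 for other cytokine genes, and from 17 to 20 for all members. Toward xiphoid cartilage they ran from 16 to 19 for all members.

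Replicate numbers are shared between tissues, but nothing says that they pair libraries. Deviations of same-numbered libraries correlated at 0.304 across genes, with 2 pairs. The replicate block gave 3344 and 3484 calls among all genes (2799 and 2745 without it) and 21 and 20 among members (18 and 19), with 1 residual degree of freedom, and Il34, Il16 and Il17ra passed with it. No scaling moved the median change of all genes by over 0.1. The 32 of 109 members with 10 counts or fewer over all libraries allow no statement at this depth beyond their counts.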
